A study of Saccharomyces cerevisiae with 15 samples.

Results

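SAGA is a multisubunit coactivator of yeast that carries 2 chromatin-modifying activities on a common scaffold, and the 10 genes described here encode its core and its deubiquitinase. They were taken by name from the array's gene table, with the brightest probe set kept for each gene, and make up 10 of the 5449 S. cerevisiae genes that could be read. Core subunits numbered 6 (TRA1, SPT20, HFI1, SPT7, SPT3 and SPT8) and deubiquitinase subunits 4 (UBP8, SGF11, SGF73 and SUS1). GCN5, which encodes the acetyltransferase of the same complex, was the gene that the study altered. The measurements thus show what the transcripts of these 10 subunits did when Gcn5p was lost or when its acetyltransferase activity was competed away.

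All cells were haploid MATα S288C grown in minimal medium with 200 µg/mL G418. In the gcn5 null strain GCN5 had been replaced by a hygromycin B resistance gene and the cells carried the empty control plasmid. In the gcn5-F221A strains the native GCN5 was still present, and a centromeric plasmid expressed gcn5-F221A, a catalytically inactive dominant allele, from mutant TEF promoters of strength 0.32, 0.68 or 0.95 relative to the unmutated TEF promoter. Wild-type carried the empty control plasmid, so G418 selection and a plasmid were common to all 5 strains. Each strain was grown in biological triplicate from an optical density of 0.0045 to between 0.4 and 0.5, and whole cell RNA of each culture was read on 1 Affymetrix Yeast 2.0 array, 15 arrays in all. The study asked which genes depend on Gcn5p acetyltransferase activity as distinct from the presence of the protein.

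As background, the core of SAGA holds the complex together and receives the signals of activators. Tra1p, a very large protein related to the PI3 kinases but without kinase activity, contacts activators and is shared with the NuA4 acetyltransferase. Spt20p, Hfi1p (also called Ada1p) and Spt7p are architectural subunits, and Spt3p and Spt8p contact the TATA-binding protein. In the deubiquitinase module the protease Ubp8p removes ubiquitin from histone H2B. Sgf11p is needed for its activity and its attachment, Sgf73p, the yeast relative of human ataxin-7, anchors the module to the rest of SAGA, and Sus1p is shared with TREX-2, a complex that couples transcription to mRNA export.

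All values are log2 signals made by the authors with RMA, so a difference of 1 is a doubling, and levels of different probe sets cannot be set against each other. A gene was called when its adjusted p from a limma fit over all 15 arrays, with Benjamini and Hochberg's adjustment over 5449 genes, was under 0.05. The array also holds probe sets for S. pombe, whose RNA was not in the sample. They give the signal of unbound probes, with a 95th percentile of 5.18, and no member was below it on any array. Each member had 1 probe set, and none overlapped another annotated gene. Array medians lay between 6.00 and 6.07, and precision is set by having 3 arrays for each strain, with a median half-width of 0.27 for the 95% interval of the difference between gcn5 null and wild-type. Signal at the 5′ end minus signal at the 3′ end, over 8 control genes, was -2.90 ± 0.22 in gcn5 null, -3.53 ± 0.38 at strength 0.32, -2.94 ± 0.46 at 0.68, -3.11 ± 0.34 at 0.95 and -3.44 ± 0.22 in wild-type (SD, n = 3 each). The part of this measure of RNA integrity in the differences below was not tested. Replicates spread least in gcn5 null, with a mean SD per gene of 0.096, and most at 0.68, with 0.229. The 4 α-specific marker genes read 7.41 or more on every array, and the 7 a-specific genes also read above the S. pombe level (5.73 to 8.95), so these markers do not settle the mating type by absence. In gcn5 null all 4 α-specific genes were called lower, with a median log2 difference of -2.58, against 22.6% of all genes. Of the 7 a-specific genes 3 were called higher there, against 18.4% of all genes. The other 4 were not called, the lowest at -0.27. At 0.68 1 α-specific gene was called, as lower, with 12.4% of all genes called. In a linear fit over promoter strength 2 were called as falling, against 7.27% of all genes. The part of these changes in the results was not tested.

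GCN5 itself read 5.73, 5.83 and 5.76 in the 3 gcn5 null cultures, against 8.97, 8.93 and 8.86 in wild-type, a log2 difference of -3.15 (SE 0.08). With gcn5-F221A it read 11.50 ± 0.07 at 0.32, 11.90 ± 0.16 at 0.68 and 13.13 ± 0.06 at 0.95 (SD over 3 cultures each). Each strain matched its label as to loss or added expression of GCN5. Native and plasmid transcripts cannot be told apart by this probe set, so the values do not show which allele the plasmid carried.

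Against this change in GCN5, the transcripts of the 10 members moved little. The highest and the lowest strain mean of a member were 0.11 (SPT7) to 0.46 (UBP8) apart on the log2 scale, and 1 of the 10 members was above the median of all genes, 0.43. The spread of replicates was alike, with a median residual SD of 0.16 over the members and 0.16 over all genes. In a test for any difference among the 5 strains 2 members passed, TRA1 (adjusted p = 0.0019, limma) and SGF73 (adjusted p = 0.0268), while 43.8% of all genes did. UBP8 came next at an adjusted p of 0.0555 and SPT8 at 0.0821. Without F221A 0.68 replicate 1 the count was 4, with SPT3 and UBP8 added and 50.9% of all genes called, and without any 1 of the 3 gcn5 null arrays, or without F221A 0.95 replicate 2 or 3, SGF73 was lost and the count was 1, with 32.6% to 40.6% of all genes called.

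**Figure D1:**
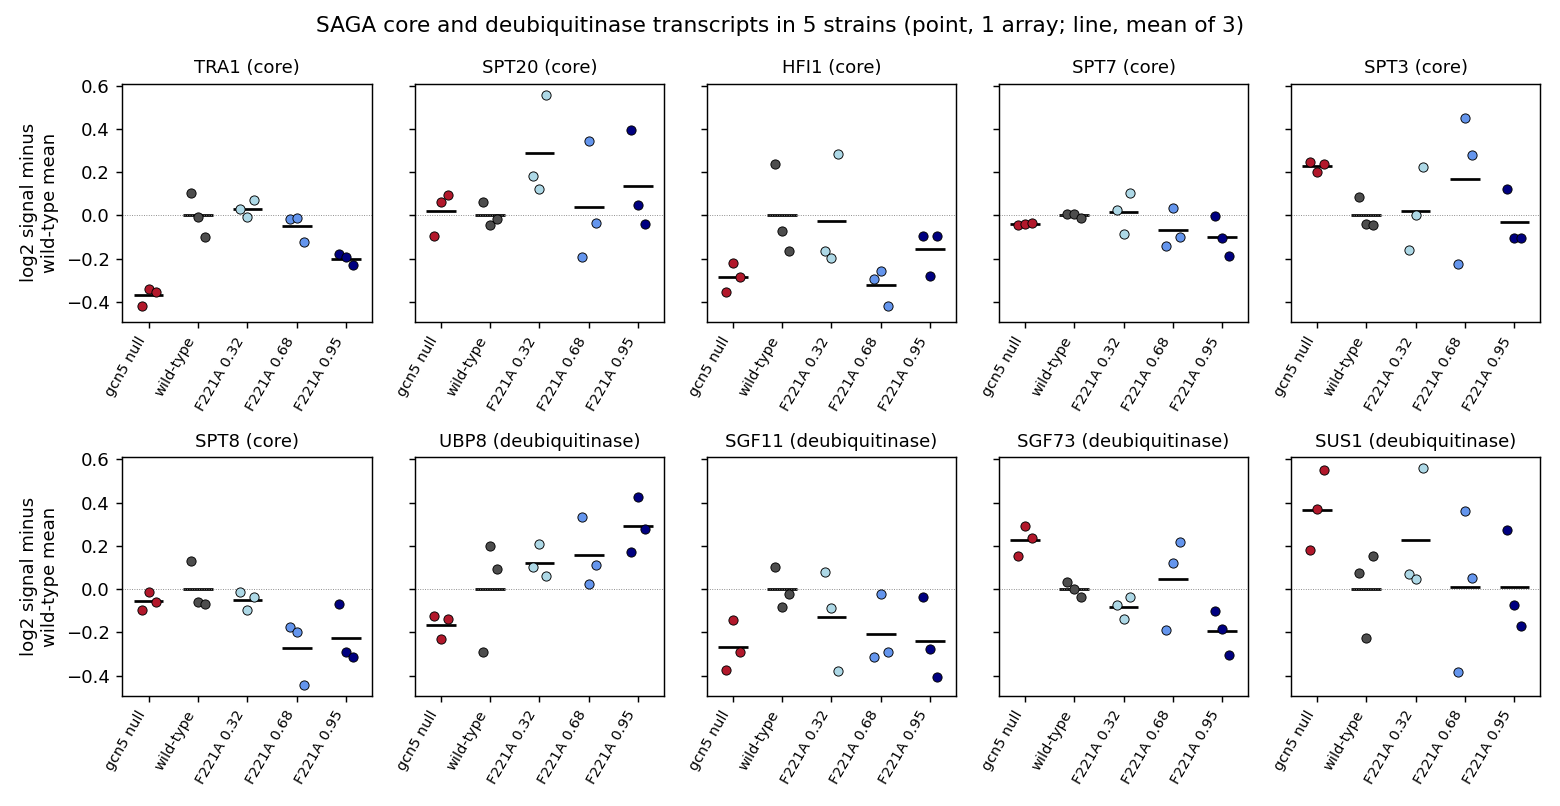
Signals of the 10 members in each strain, on the log2 scale relative to the wild-type mean, with core subunits before deubiquitinase subunits. Points are single arrays and bars the mean of 3; the gcn5 null points of TRA1 lie below all others and those of SGF73, SPT3 and SUS1 lie above every wild-type point.

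**Figure D2:**
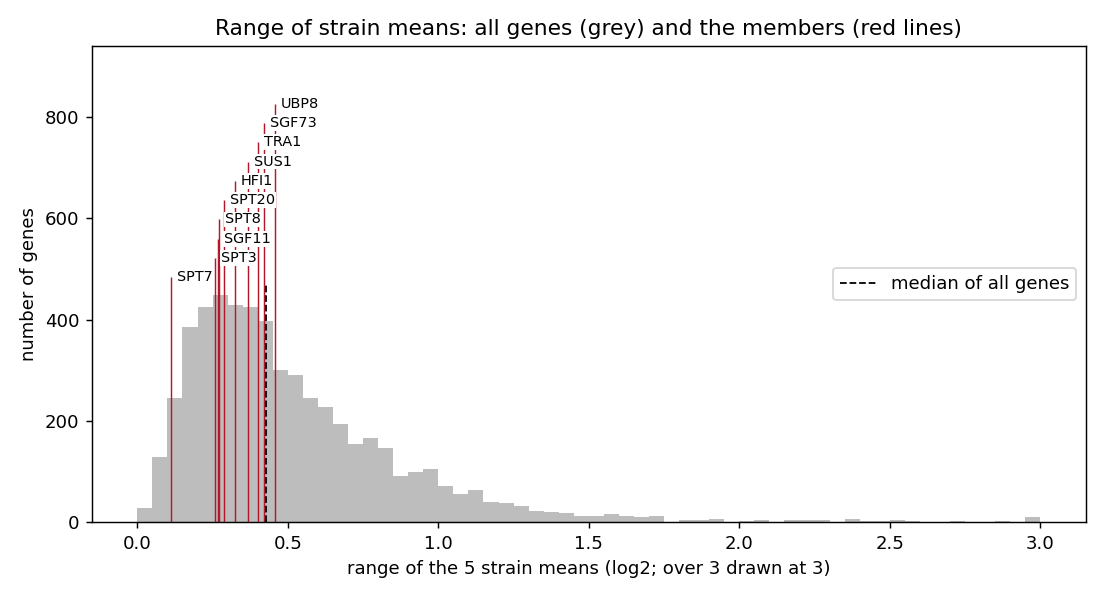
Distance between the highest and the lowest of the 5 strain means (log2) for 5449 genes in grey, with a red line for each member and a dashed line at the median of all genes, 0.43. UBP8, at 0.46, is the only member to the right of the dashed line.

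TRA1 (YHR099W, chromosome VIII) was the member that fell in gcn5 null. It read 10.03, 10.11 and 10.10 in gcn5 null, against 10.55, 10.44 and 10.35 in wild-type. With gcn5-F221A it read 10.48, 10.44 and 10.52 at 0.32, then 10.43, 10.44 and 10.33 at 0.68, and 10.27, 10.26 and 10.22 at 0.95. The gcn5 null arrays were the lowest 3 of the 15 and the 0.95 arrays came next, below every wild-type array. Null was lower than wild-type by a log2 difference of -0.37 (SE 0.07, adjusted p = 0.000956, limma), which is 0.774 of the wild-type level with a 95% interval of 0.699 to 0.857. The call was kept when any 1 array was left out, with adjusted p of at most 0.0066. TRA1 was called in 3 of the 10 pairs of strains, since it was also higher at 0.32 than in gcn5 null by 0.40 (SE 0.07, adjusted p = 0.000627) and higher at 0.68 than in gcn5 null by 0.32 (SE 0.07, adjusted p = 0.00632). At 0.95 the difference from wild-type was -0.20 (SE 0.07) and that from gcn5 null 0.17 (SE 0.07), and neither passed (adjusted p = 0.0738 and 0.0742). Its slope over promoter strength, the fitted log2 change for a strength of 1 with wild-type at 0, was -0.21 (SE 0.07, adjusted p = 0.0507), which did not pass, though it did without wild-type replicate 3 or without F221A 0.68 replicate 1.

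The remaining core subunits were not called between gcn5 null and wild-type. SPT20 (YOL148C, chromosome XV), needed for the integrity of the complex, read 9.21 to 9.40 in gcn5 null and 9.26 to 9.37 in wild-type, a log2 difference of 0.02 with a 95% interval of -0.31 to 0.35. It varied more with the plasmid allele, between 9.43 and 9.86 at 0.32, where all 3 arrays were above wild-type. That difference, 0.29, had an interval of -0.04 to 0.62 and an adjusted p of 0.522. HFI1 (YPL254W, chromosome XVI), whose protein pairs with Taf12p through a histone fold, read 8.64, 8.77 and 8.71 in gcn5 null, against 9.23, 8.92 and 8.83 in wild-type. These arrays did not overlap, but wild-type replicate 1 stood apart from the other two, and the difference of -0.29 (SE 0.13) had an adjusted p of 0.0979. HFI1 was lowest at 0.68, with 8.70, 8.73 and 8.57, and its difference from wild-type there was -0.32 (SE 0.13, adjusted p = 0.121).

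SPT7 (YBR081C, chromosome II), which carries a bromodomain, was the steadiest member. It read 9.74, 9.75 and 9.75 in gcn5 null and 9.79, 9.79 and 9.77 in wild-type, and its lowest array of all was at 9.60 and its highest at 9.89. The null difference of -0.04 had a 95% interval of -0.20 to 0.12. SPT3 (YDR392W, chromosome IV) read 9.29, 9.24 and 9.28 in gcn5 null, against 9.13, 9.00 and 9.00 in wild-type, a difference of 0.23 (SE 0.15, adjusted p = 0.241). Its arrays at 0.68 were 8.82, 9.50 and 9.32, the lowest and the highest of all 15 among them. Its difference from wild-type at that strength was 0.17 with bounds of -0.15 and 0.49, and without F221A 0.68 replicate 1 it was called there.

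SPT8 (YLR055C, chromosome XII), the other subunit that contacts the TATA-binding protein, was the member with a called slope over promoter strength. It read 9.41, 9.49 and 9.44 in gcn5 null. Over promoter strength it read 9.63, 9.44 and 9.43 in wild-type, then 9.49, 9.41 and 9.46 at 0.32, 9.32, 9.30 and 9.06 at 0.68, and 9.43, 9.21 and 9.19 at 0.95. The arrays at 0.68 lay below every wild-type array, and at 0.95 the highest array differed from the lowest of wild-type by less than 0.01. The slope was -0.29 (SE 0.09, adjusted p = 0.0494, limma) against 15.7% of all genes called, 7.27% as falling and 8.39% as rising, and SPT8 was the 1 member of 10 that passed. It stood at the threshold: the call was kept in 3 of the 15 fits that left out an array, those without F221A 0.68 replicate 1, F221A 0.68 replicate 2 or F221A 0.95 replicate 1, and the adjusted p reached 0.177 in the rest, without wild-type replicate 1. With strengths coded by rank SPT8 did not pass (adjusted p = 0.0555) and TRA1 did (adjusted p = 0.0491). No single strength differed from wild-type, with -0.05 at 0.32, -0.27 at 0.68 (adjusted p = 0.0712) and -0.22 at 0.95 (adjusted p = 0.137), and gcn5 null differed from wild-type by -0.06 with an interval of -0.25 to 0.14.

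Among the deubiquitinase transcripts, UBP8 (YMR223W, chromosome XIII), the protease, had the widest range of strain means. In gcn5 null it read 7.03, 6.92 and 7.01. The series over promoter strength began in wild-type at 6.86, 7.35 and 7.24, followed by 7.25, 7.36 and 7.21 at 0.32, 7.49, 7.18 and 7.27 at 0.68, and 7.33, 7.58 and 7.43 at 0.95. Every 0.95 array was above every gcn5 null array, and wild-type covered most of the range on its own because its replicate 1 was the lowest of the 15. UBP8 was higher at 0.95 than in gcn5 null by 0.46 (SE 0.12, adjusted p = 0.0113, limma), a fold of 1.37 with a 95% interval of 1.14 to 1.65. It was the 1 called pair of 10 for this gene, and without F221A 0.95 replicate 2 its adjusted p was 0.0534. Against wild-type the difference was -0.16 (SE 0.12, adjusted p = 0.308) in gcn5 null and 0.29 (SE 0.12, adjusted p = 0.141) at 0.95. Without wild-type replicate 1 UBP8 was called between gcn5 null and wild-type, with an adjusted p of 0.0416, and it was then also called at 0.32 and at 0.68 against gcn5 null.

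SGF73 (YGL066W, chromosome VII), the anchor of the module, moved the other way. It read 9.69, 9.83 and 9.78 in gcn5 null, against 9.57, 9.54 and 9.50 in wild-type. With the plasmid allele it read 9.46, 9.40 and 9.50 at 0.32, 9.35, 9.66 and 9.76 at 0.68, and 9.44, 9.36 and 9.24 at 0.95. The gcn5 null arrays were all above wild-type and the 0.95 arrays all below it, and the 0.68 arrays lay on both sides of wild-type. SGF73 was lower at 0.95 than in gcn5 null by a log2 difference of -0.42 (SE 0.10, adjusted p = 0.00482, limma), a fold of 0.746 with a 95% interval of 0.645 to 0.863. At 0.32 it was lower than in gcn5 null by -0.31 (SE 0.10, adjusted p = 0.0227). The 0.95 call was kept with any 1 array left out, while the 0.32 call was lost without F221A 0.32 replicate 2, gcn5 null replicate 2 or gcn5 null replicate 3, the adjusted p then reaching 0.0802. Set against wild-type, gcn5 null was 0.23 higher (SE 0.10, adjusted p = 0.0781) and 0.95 was 0.20 lower, as a log2 difference of -0.20 (SE 0.10, adjusted p = 0.222), and neither passed.

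SGF11 (YPL047W, chromosome XVI) and SUS1 (YBR111W-A, chromosome II) were not called in any of the 10 pairs of strains. SGF11 read 9.71, 9.95 and 9.80 in gcn5 null, against 10.19, 10.01 and 10.07 in wild-type, a difference of -0.27 with a 95% interval of -0.55 to 0.01. Its strain means were ordered from wild-type (10.09) through 0.32 (9.96), 0.68 (9.88) and 0.95 (9.85) to gcn5 null (9.82). SUS1 was the most variable member, with a residual SD of 0.27. It averaged 10.19 ± 0.18 in gcn5 null and 9.82 ± 0.20 in wild-type (SD, n = 3 each), a difference of 0.37 with an interval of -0.06 to 0.79, and its single arrays ran from 9.44 at strength 0.68 to 10.38 at 0.32.

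Counted over the members, gcn5 null against wild-type gave 1 called gene of 10, TRA1, with 41.0% of all genes called, 22.6% as lower and 18.4% as higher. The arrays of the 2 strains did not overlap for 7 members, against 62.9% of all genes: SPT3, SGF73 and SUS1 were higher in all gcn5 null arrays, and TRA1, HFI1, SPT7 and SGF11 lower. The median difference over the members was -0.05, against -0.01 over all genes, and the median of its size was 0.23, against 0.27. The core had a median of -0.05 and the deubiquitinase one of 0.03. All 10 of the 95% intervals lay within a doubling or halving, between -0.57 and 0.79, and 3 members (TRA1, SGF73 and HFI1) had an unadjusted p under 0.05, against 49.3% of all genes. A second member was called beside TRA1 in 3 of the fits that left out an array: UBP8 without wild-type replicate 1, HFI1 without F221A 0.32 replicate 3 and SGF73 without F221A 0.68 replicate 1. In these fits 32.1%, 45.1% and 44.5% of all genes were called, in the same order.

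In the gcn5-F221A strains no member was called against wild-type by limma at any of the 3 strengths, with 1.60% of all genes called at 0.32, 12.4% at 0.68 and 12.5% at 0.95, where 7.25% were higher and 5.23% lower. With an unadjusted p under 0.05 there were 0 members at 0.32, 2 at 0.68 (SPT8 and HFI1) and 3 at 0.95 (TRA1, SPT8 and UBP8), against 11.3%, 29.4% and 26.7% of all genes at these strengths. Their arrays did not overlap with wild-type for 1 member at 0.32, SPT20, against 17.0% of all genes, for 2 at 0.68, SPT8 and HFI1, against 28.0%, and for 3 at 0.95, SPT8, TRA1 and SGF73, against 38.8%. At 0.95 the median difference over the members was -0.13, against 0.00 over all genes, and the 10 intervals lay between -0.52 and 0.56. Leaving out F221A 0.68 replicate 1 brought 2 members, SPT3 and SPT8, past the threshold at 0.68, with 26.6% of all genes then called. The share of all genes called at 0.68 was as low as 1.32%, without wild-type replicate 1, and over the fits that left out an array it ran from 0.697% to 2.72% at 0.32 and from 6.96% to 17.4% at 0.95.

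Strength 0.95 against gcn5 null shares no wild-type array. There 2 of 10 members were called, UBP8 higher and SGF73 lower, with 33.1% of all genes called, 19.5% as higher and 13.6% as lower. The arrays did not overlap for 4 members, against 54.6% of all genes: UBP8 and TRA1 were higher at 0.95, and SGF73 and SPT3 lower. At 0.32 against gcn5 null 2 members were called, with 41.2% of all genes, and at 0.68 against gcn5 null 1, with 16.2%. Between the plasmid strains themselves 0 members were called by limma, with 1.91% of all genes called at 0.95 against 0.32, 3.36% at 0.68 against 0.32 and 4.99% at 0.95 against 0.68. With an unadjusted p under 0.05 there were 1, 2 and 2 members in these 3 comparisons, against 16.8%, 26.9% and 20.0% of all genes. Without F221A 0.68 replicate 1 SPT3 and SGF73 were called in both that involve 0.68, with 19.3% of all genes called at 0.68 against 0.32 and 16.5% at 0.95 against 0.68.

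**Figure D3:**
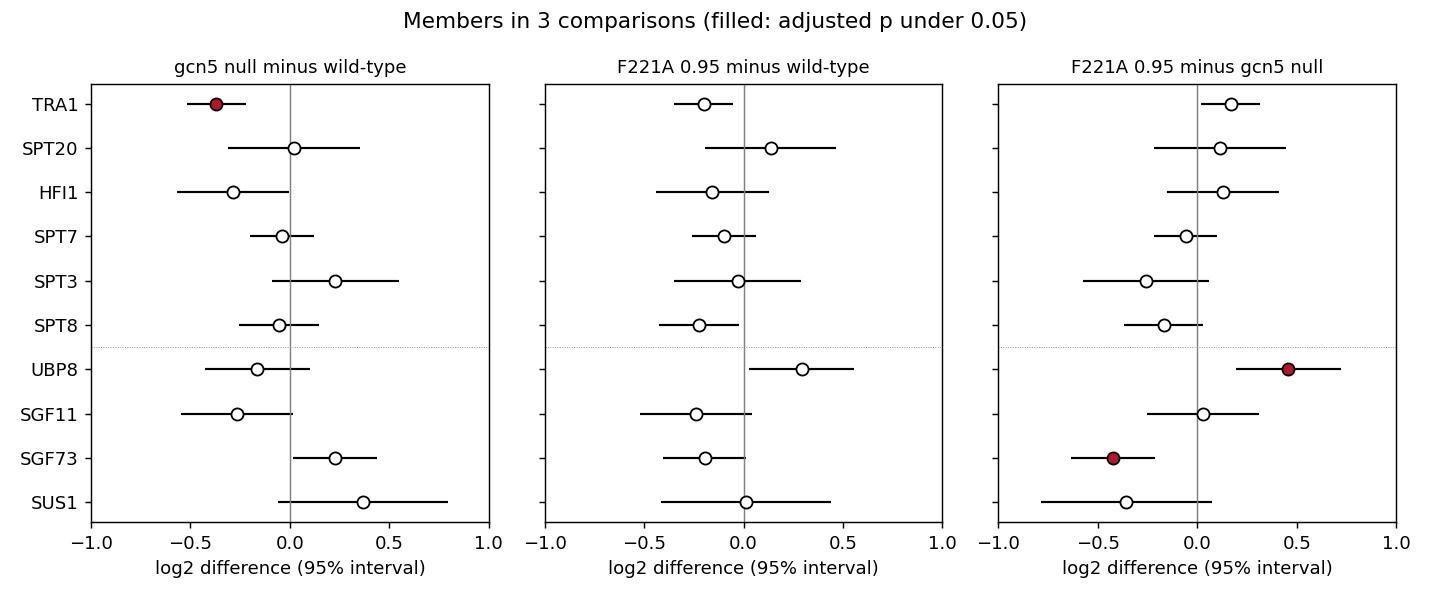
Log2 differences of the 10 members in 3 comparisons, with 95% intervals from the limma fit; filled points had an adjusted p under 0.05. TRA1 is filled in gcn5 null minus wild-type, no member in F221A 0.95 minus wild-type, and UBP8 and SGF73 on opposite sides of 0 in F221A 0.95 minus gcn5 null.

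When the 5 strains were ranked by their means for each member, no strain differed from its neighbour in rank at an adjusted p under 0.05 in any of the 10 genes. The order itself varied from gene to gene. Gcn5 null was lowest for TRA1, UBP8 and SGF11 and highest for SPT3, SGF73 and SUS1. Strength 0.95 was lowest for SPT3, SPT7 and SGF73 and highest for UBP8, and strength 0.68 was lowest for SPT8 and HFI1. Strength 0.32 was highest for TRA1, SPT20 and SPT7, and wild-type was highest for SPT8, HFI1 and SGF11 and lowest for SPT20 and SUS1.

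The other subunits of SAGA were counted in the same fits. Of the acetyltransferase module apart from GCN5, SGF29, whose protein reads methylated histone H3 lysine 4, rose by 0.35 (SE 0.10, adjusted p = 0.0139) in gcn5 null and by 0.50 (SE 0.10, adjusted p = 0.00675) at 0.95, with a slope of 0.40 (SE 0.10, adjusted p = 0.0175). Its signal was 7.34 ± 0.06 in gcn5 null and 6.99 ± 0.08 in wild-type (SD, n = 3 each). With gcn5-F221A it was 7.46 ± 0.18 at 0.32, 7.27 ± 0.05 at 0.68 and 7.49 ± 0.17 at 0.95, so the means did not rise in order of strength. At 0.32 GCN5 and SGF29 of this module were called higher, with 1.60% of all genes called, and at 0.68 GCN5 alone, with 12.4%. The adaptors ADA2 and NGG1 were not called against wild-type in gcn5 null or at 0.95. Of the 5 TAFs that SAGA shares with the general transcription factor TFIID, 3 fell in gcn5 null and none was called at 0.95. These were TAF9 (-0.46, SE 0.11), TAF10 (-0.41, SE 0.12) and TAF5 (-0.41, SE 0.07). Of the 10 genes for TFIID without these TAFs and for the TATA-binding protein, 1 was called in gcn5 null, TAF13 (-0.38, SE 0.14), and none at 0.95. Beside each of these counts stand the 41.0% of all genes called in gcn5 null, 22.6% as lower and 18.4% as higher, and the 12.5% at 0.95.

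Partners of the members outside SAGA were counted in the same way, beside the same 41.0% of all genes called in gcn5 null and 12.5% at 0.95. Of all genes 22.6% were called lower and 18.4% higher in gcn5 null. Sus1p works in TREX-2 with 4 other proteins, and 3 of their genes fell in gcn5 null, while none was called at 0.95. CDC31, the yeast centrin, fell by 0.49 (SE 0.16), THP1 fell by 0.35 (SE 0.09) and SAC3, the scaffold, fell by 0.26 (SE 0.09). Tra1p enters SAGA and NuA4 with the help of chaperones, and 1 of the 6 genes for these factors was called in gcn5 null, TEL2. It read 8.94 ± 0.07 in gcn5 null and 9.62 ± 0.08 in wild-type (SD, n = 3 each), a difference of -0.68 (SE 0.10, adjusted p = 0.000156). Strength 0.68 also had 1 called gene of the 6, as lower, with 12.4% of all genes called. The lowest difference there was that of TEL2, -0.43, with a mean of 9.20. None of the 6 was called at 0.32 or 0.95. Of 12 NuA4 genes other than TRA1, 3 rose and 5 fell in gcn5 null, the largest differences among those called being EAF6 (-0.55, SE 0.16), EAF5 (-0.50, SE 0.18) and ARP4 (-0.43, SE 0.08). At 0.95 only EPL1 of these 12, a subunit of the catalytic core, was called, as higher (0.47, SE 0.10), with a slope of 0.37 (SE 0.09). EPL1 was also among the 5 that fell in gcn5 null (-0.27, SE 0.10), so it was called in opposite directions in the 2 strains. Its means were 9.39 in wild-type, 9.87 at 0.32, 9.67 at 0.68 and 9.85 at 0.95, so they did not rise in order of strength. Of these 12 genes 1 was called at 0.32, where 1.60% of all genes were.

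The mark that Ubp8p removes is laid down and controlled by other enzymes. Of 9 genes for H2B ubiquitination and for Ubp10p, the other H2B deubiquitinase, 2 rose and 3 fell in gcn5 null. There 41.0% of all genes were called, 18.4% as higher and 22.6% as lower. RAD6, the ubiquitin-conjugating enzyme, rose by 0.54 (SE 0.18) and PAF1, a subunit of the elongation complex of that name, by 0.37 (SE 0.10), while UBP10 fell by 0.47 (SE 0.12). BRE1, the ubiquitin ligase that works with Rad6p, fell by 0.33 (SE 0.08) and CTR9, another subunit of the PAF1 complex, by 0.26 (SE 0.09). At 0.95 PAF1 was the 1 called gene of the 9 (0.54, SE 0.10), where 12.5% of all genes were called, with a slope of 0.35 (SE 0.10). Its means were 9.92 in wild-type, 10.59 at 0.32, 10.16 at 0.68 and 10.46 at 0.95, so they did not rise in order of strength. Of the 9 genes 1 was called at 0.32, as higher, where 1.60% of all genes were. Strength 0.68 also had 1 called gene of the 9, as lower, where 12.4% of all genes were called.

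**Figure D4:**
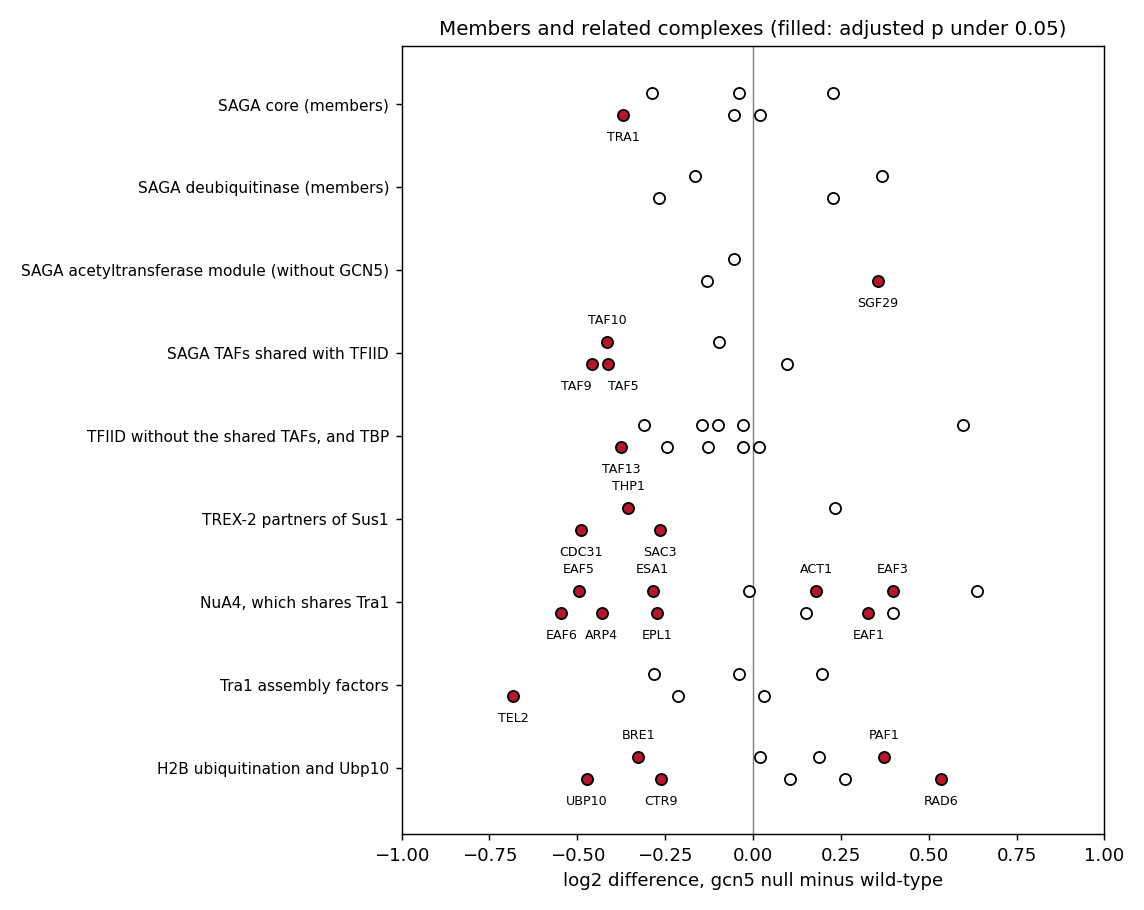
Log2 differences between gcn5 null and wild-type for the members and for the genes of related complexes, 1 point for each gene and filled where the adjusted p was under 0.05, with the names of those genes. TRA1 is the only filled point of the 2 top lines, and SGF29 the only one of the acetyltransferase module without GCN5. The shared TAFs hold 3 of 5, TFIID and TBP 1 of 10, TREX-2 3 of 4 and NuA4 8 of 12. The Tra1 assembly factors hold 1 of 6 and the H2B ubiquitination list 5 of 9. Of all genes 41.0% were called in this comparison.

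The genes whose signals ran most like those of 3 members were listed as a description, by Pearson's r over the 15 arrays among 5216 genes above the S. pombe level. These correlations are computed over strains and replicates together, the arrays share their normalization, and no test was made. For TRA1 they were BRE4 (r = 0.95), FTR1, the high-affinity iron permease (r = 0.94), and IZH4 (r = 0.94). Those for SGF73 were INP52, a polyphosphatidylinositol phosphatase (r = 0.97), YPL150W (r = 0.95) and SSK1, a regulator of the osmosensing pathway (r = 0.95). UBP8 had lower values, with SCW11, a cell wall protein (r = 0.87), RAS2, a small GTPase (r = 0.85), and FAA3, an acyl-CoA synthetase (r = 0.84).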

How the data were processed

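Whole cell RNA was hybridized to Affymetrix Yeast 2.0 arrays. The authors made the deposited log2 signals with RMA and Bioconductor's Affy package, which corrects background, quantile-normalizes all probe sets and summarizes each one. Software versions are not given in the sources used here. Quantile normalization forces equal distributions on the arrays, so a shift of all transcripts would not be seen. Probe sets were named through the array's gene table and symbols through RefSeq genes of assembly R64. For the 47 genes with several probe sets the brightest was kept. One limma model (limma 3.58.1, R 4.3.3) with a mean for each strain was fitted to 15 arrays and 5449 genes, with Benjamini and Hochberg's adjustment of p over all genes. The procedure was run on simulated data with planted differences larger than any between strain means of the members. The simulated spread of a gene was equal in all strains. The run therefore does not show how well differences of the size seen in the members are found. The members and lists were chosen with earlier results of these data known, so counts over them are descriptions. Named are all 10 members, GCN5 and the 3 genes most like each of the 3 members with the smallest p among strains. From each other list up to 3 called genes with the largest differences in gcn5 null, at 0.95 and in the slope are named. Where a list had 5 or fewer genes called in gcn5 null, the rest of these are named too. Some other counts are given without names. Alternatives covered the features tested, normalization, variance moderation, array weights, the replicate number as a block, thresholds, the coding of strength and leaving out each array. Plots were drawn with matplotlib 3.10.9.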

Additional observations from a re-analysis of the deposited data

How the results depend on the processing

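Of 2880 recomputed values of single members, 28 lost the threshold, 68 gained it, 4 that were not called moved by more than the replicate spread, and the other 2780 kept their side of the threshold. The sign changed in 79 values, none of which was called, and no called value changed sign. Array weights raised the counts of called members. Percentages in brackets, here and in the rest of this paragraph, are the shares of all genes called in the same setting. Against wild-type the counts were 6 for gcn5 null (61.1%), 1 for 0.68 (22.7%) and 5 for 0.95 (41.9%), with 5 for the slope (39.7%). Against gcn5 null they were 6 for 0.95 (63.1%), 4 for 0.32 (54.2%) and 2 for 0.68 (17.8%). There were 2 for 0.95 against 0.32 (12.7%), 2 for 0.95 against 0.68 (15.3%) and 7 among 5 strains (72.1%). With only the arrays compared in the fit the counts were 5 for gcn5 null (54.4%) and 0 for the slope (10.3%). Against gcn5 null they were then 3 for 0.95 (42.5%), 3 for 0.32 (39.9%) and 0 for 0.68 (8.85%). Median centring gave 2 for gcn5 null (41%) and 2 for the slope (16.3%). Quantile normalization over S. cerevisiae genes gave 2 for gcn5 null (40.2%), and leaving out dim genes 2 for the slope (16.3%). The slope gave 0 with all probe sets tested (6.59% of probe sets) and 0 over 0.32, 0.68 and 0.95 alone (1.6%). With the rank of the strength it gave 1 (15%), TRA1 in place of SPT8. Against a fold of 1.2 the counts were 0 for gcn5 null (15%) and 0 for the slope (1.52%). They were also 0 for 0.95 (11.5%), 0.32 (14.1%) and 0.68 (4.11%) against gcn5 null. At an unadjusted p under 0.05 they were 3 for gcn5 null (49.3%), 2 for 0.68 (29.4%), 3 for 0.95 (26.7%) and 3 for the slope (30.9%). Against gcn5 null the count was 3 for 0.95 (43%), 3 for 0.32 (49.6%) and 3 for 0.68 (29.5%), and among 5 strains it was 4 (52.5%). Between plasmid strains it was 1 for 0.95 against 0.32 (16.8%), 2 for 0.68 against 0.32 (26.9%) and 2 for 0.95 against 0.68 (20%). The cause of these shifts was not tested.

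With each array left out in turn, the counts ran from 1 to 2 for gcn5 null, 0 to 2 for 0.68, 0 to 2 for the slope, 1 to 2 for 0.95, 1 to 3 for 0.32 and 1 to 2 for 0.68 against gcn5 null, 0 to 2 for 0.68 against 0.32, 0 to 2 for 0.95 against 0.68 and 1 to 4 among 5 strains, and stayed at 0 for 0.32 and for 0.95 against wild-type and for 0.95 against 0.32. All genes called moved by more than 1.5 times in each comparison under at least 1 alternative. With an array left out they ran from 1681 to 2460 for gcn5 null, 38 to 148 for 0.32, 72 to 1451 for 0.68, 379 to 947 for 0.95, 425 to 1290 for the slope, 1379 to 2042 for 0.95, 1596 to 2422 for 0.32 and 565 to 1025 for 0.68 against gcn5 null, 32 to 299 for 0.95 against 0.32, 0 to 1053 for 0.68 against 0.32, 79 to 898 for 0.95 against 0.68 and 1777 to 2776 among 5 strains. Over the other settings they ran from 818 to 3332 for gcn5 null (2232 as reported), 6 to 616 for 0.32 (87), 4 to 1600 for 0.68 (675), 92 to 2281 for 0.95 (680), 83 to 2165 for the slope (853), 625 to 3439 for 0.95 against gcn5 null (1803), 771 to 2955 for 0.32 against gcn5 null (2243), 224 to 1606 for 0.68 against gcn5 null (881), 4 to 915 for 0.95 against 0.32 (104), 0 to 1464 for 0.68 against 0.32 (183), 0 to 1090 for 0.95 against 0.68 (272) and 2143 to 3929 among 5 strains (2385).

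Replicate numbers were not treated as pairs. After strain means were removed 5 of 15 arrays correlated best with their own number, and same-numbered arrays correlated at -0.070 on average, against 0.041 for others. With the replicate block the count among 5 strains was 1, because SGF73 no longer passed, and no other call of a member changed. The 3 arrays of each strain limit what can be called: in gcn5 null against wild-type the intervals of the members reached 0.15 to 0.43 on either side.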
